A study of Drosophila melanogaster with 24 samples.

Results

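Serpins are serine protease inhibitors. A serpin offers its reactive centre loop to a protease as bait and is cleaved, and the change of shape that follows traps the enzyme. In flies, secreted serpins restrain the protease cascades of the body fluid that activate the Toll receptor and the melanin-forming phenoloxidases, and some act on proteases inside the secretory pathway. The genes described here are 10 serpins chosen by name (Spn100A, Spn43Aa, Spn43Ab, Spn27A, Spn28Dc, Spn42Da, Spn42Dd, Spn77Ba, Spn88Ea and nec), represented by 11 of 12359 rows of the array table, with 2 rows for Spn77Ba alone. They are 10 of 9011 genes named on the array, and 13 further serpins on it are used for comparison. The 10 were chosen with their dmyc over cd2 ratios at the 4 time points already known, so these ratios are a description and carry no test.

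The arrays, 24 in number and each hybridised with 2 RNAs, measured wing discs, the epithelial sacs of the larva from which the adult wing grows. One came from discs of tub>dmyc>Gal4, in which the tubulin promoter, active in all cells, drives the Drosophila Myc gene from a removable cassette, and the other from discs of tub>cd2>Gal4, the control, whose cassette holds cd2. Larvae of both genotypes were in the 3rd instar and the protocol gives a heat shock of 15 min, which starts the formation of clones, and once clones have formed the RNA of a disc is a mixture from cells with and without the cassette. Discs were compared at time points of 0, 12, 24 and 48 h, with 6 arrays at each. The labels do not say from which event the hours are counted, so whether discs of 0 h already held clones is not known. Cells that overexpress Myc displace their neighbours, a process called cell competition, and the comparison asks how the discs in which this happens differ from controls over time.

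Every value is a log2 ratio of dmyc over cd2 discs, centred on the median of its array, so that a positive value likely means more RNA in dmyc discs. That direction was read from which genotype each title gives first, and the base of 2 was assumed. On replicates 1 to 3 the dmyc RNA was in Cy5 and on replicates 4 to 6 in Cy3. The deposited values of both orientations already run the same way within a time on average. This was judged from each orientation's mean at a time less its mean over all times (r across features 0.84, 0.65, 0.73 and 0.50 at 0, 12, 24 and 48 h). Between single arrays of a time the lowest r was -0.23, -0.02, 0.0007 and -0.001. Arrays of 1 orientation at different times could oppose each other, down to r = -0.75 between 0 h replicate 3 and 12 h replicate 3. Each array matched best with 1 array of its time that had the dyes exchanged (r from 0.52 to 0.90), which makes 3 dye-swap pairs at a time. Whether partners share RNA, and whether replicates came from separate larvae, is unknown, so the p-values here reflect nothing but spread between arrays, which may be technical, and are too small where partners share RNA. A pair with both ratios reversed would not show in these checks. In discs taken whole, fewer cells of a type and less RNA per cell cannot be told apart. A ratio also carries no level, so it cannot show whether a serpin or a tissue marker was expressed at all, and the depth behind a value is unknown.

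Spn100A and Spn43Aa moved over the widest range of the 10. Their ratios were far below 0 at 0 h, mostly above 0 at 12 h, mixed at 24 h and mostly below 0 at 48 h. The ratio of Spn100A ran from -1.63 over a median of -0.71 to -0.33 on the 6 arrays at 0 h. Its lowest, median and highest values were -0.16, 0.40 and 0.62 at 12 h. They were -0.85, -0.18 and 1.81 at 24 h, and -1.43, -0.52 and 0.16 at 48 h. All 6 arrays were thus below 0 at 0 h, 4 of 6 above 0 at 12 h, 4 of 6 below 0 at 24 h and 5 of 6 below 0 at 48 h. The means were -0.92 ± 0.56, 0.28 ± 0.32, 0.21 ± 1.14 and -0.64 ± 0.59 (SD, n = 6 at each time).

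Spn43Aa ran from -1.37 over -0.86 to -0.43 at 0 h and from 0.22 over 0.39 to 0.84 at 12 h. No array of either time lay on the other side of 0. At 24 h the values were -0.23, 0.05 and 1.01, with 3 arrays on each side of 0, and at 48 h they were -1.39, -0.57 and 0.06, with 5 of 6 arrays below 0. The means were -0.89 ± 0.40, 0.44 ± 0.24, 0.20 ± 0.48 and -0.57 ± 0.50 (SD, n = 6 at each time). The span between the lowest and the highest time mean was 1.32 for Spn43Aa and 1.20 for Spn100A, which placed them 46th and 61st among 10661 features, whose median span was 0.16.

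**Figure D1:**
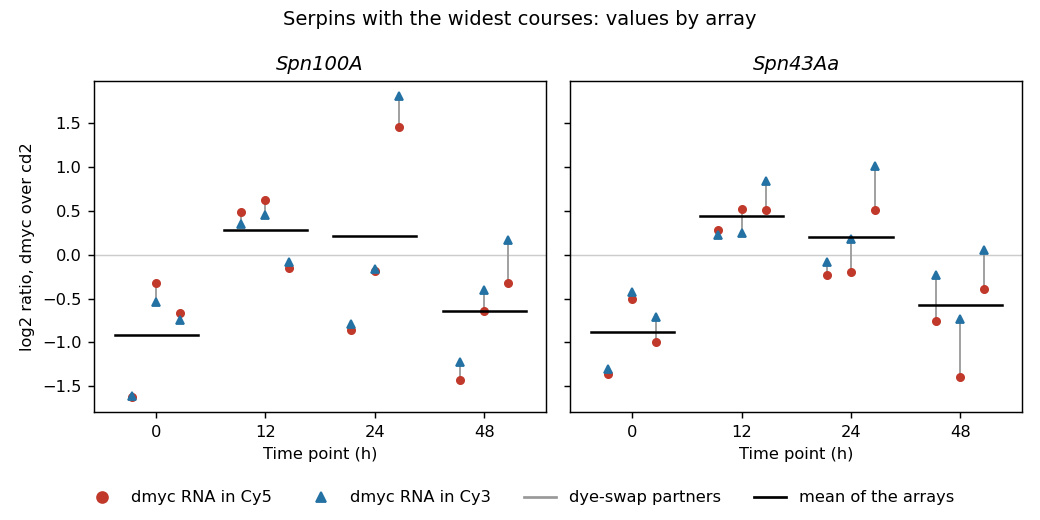
Log2 ratio of dmyc over cd2 discs (vertical axis) for Spn100A (left) and Spn43Aa (right) at each time point in hours (horizontal axis, times evenly spaced). Circles and triangles are arrays with dmyc RNA in Cy5 and in Cy3, grey lines join dye-swap partners and black bars are means of 6 arrays; at 24 h the pair of replicates 3 and 4 of Spn100A stands above the other arrays.

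The spread of Spn100A lay between the pairs more than within them. Its pair means were -1.62, -0.43 and -0.71 at 0 h, 0.42, 0.54 and -0.12 at 12 h, -0.82, -0.18 and 1.63 at 24 h, and -1.32, -0.52 and -0.08 at 48 h, while partners differed by 0.16 in the median of 12 pairs and by at most 0.49. The pair of 24 h replicates 3 and 4 decided the 24 h mean, which was -0.50 without it, and 0.73 without replicates 1 and 5 and 0.40 without replicates 2 and 6. At 48 h the mean was -0.30 without replicates 1 and 4. At 0 h it was -0.57 without replicates 1 and 4, and at 12 h it was 0.15 without replicates 2 and 5 and 0.48 without replicates 3 and 6. For Spn43Aa the same 24 h pair stood highest at 0.75, and the 24 h mean was -0.08 without it. Its 24 h mean was 0.37 without replicates 1 and 5, and 0.30 without replicates 2 and 6, and its 48 h mean was -0.33 without replicates 2 and 5. Across the 24 arrays the ratios of Spn100A and Spn43Aa had r = 0.79, and 0.63 once each time's mean was removed. The points share arrays and dye-swap pairs, so this is a description.

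Spn28Dc, Spn77Ba and Spn88Ea had means of the same sign as those of Spn100A and Spn43Aa at each time, on a smaller scale. The mean of Spn77Ba was highest at 24 h, while those of the others named here were highest at 12 h. Spn28Dc, a secreted regulator of phenoloxidase at wounds, had values of -0.31, -0.25 and -0.15 (lowest, median and highest of 6 arrays) at 0 h, -0.07, 0.11 and 0.21 at 12 h, -0.04, 0.02 and 0.15 at 24 h, and -0.28, -0.13 and -0.05 at 48 h. All 6 arrays were below 0 at 0 h and again at 48 h. Its spread was the smallest of the 10 at 0 h, with a mean of -0.23 ± 0.06 (SD, n = 6). The later means were 0.10 ± 0.09 at 12 h, 0.04 ± 0.07 at 24 h and -0.14 ± 0.08 at 48 h (SD, n = 6 each), and the 12 h mean was 0.06 without replicates 2 and 5.

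Spn77Ba, a serpin known to hold back melanin formation in the trachea, had values of -0.30, -0.17 and -0.09 at 0 h, 0.04, 0.12 and 0.29 at 12 h, -0.10, 0.29 and 0.38 at 24 h, and -0.19, -0.07 and 0.03 at 48 h (lowest, median and highest). The 0 h arrays were all below 0 and the 12 h arrays all above it. Its means were -0.19 ± 0.08, 0.13 ± 0.09, 0.20 ± 0.19 and -0.07 ± 0.07 (SD, n = 6 at each time). The 24 h mean was 0.32 without replicates 2 and 6 and 0.13 without replicates 1 and 5, and the 48 h mean was -0.04 without replicates 3 and 6. Its rows had means of -0.15 and -0.22 at 0 h, 0.14 and 0.13 at 12 h, 0.14 and 0.26 at 24 h, and -0.08 for both at 48 h, so that they ran the same way at every time.

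Spn88Ea, which restrains Toll and is needed for the wings of the young adult to unfold, had values of -0.56, -0.40 and 0.04 at 0 h, -0.10, 0.17 and 0.30 at 12 h, -0.17, 0.06 and 0.55 at 24 h, and -0.41, -0.08 and 0.07 at 48 h. At each time at least 1 array lay on the other side of 0. The means were -0.31 ± 0.25, 0.14 ± 0.15, 0.13 ± 0.26 and -0.10 ± 0.16 (SD, n = 6 at each time). At 0 h the pair of replicates 1 and 4 stood at -0.0035, against -0.46 and -0.48 in the other pairs, and at 24 h the mean was -0.02 without replicates 3 and 4. Without replicates 2 and 5 its 48 h mean was -0.03, and without replicates 1 and 5 its 24 h mean was 0.25. Its 12 h mean was 0.22 without replicates 1 and 4 and 0.08 without replicates 3 and 6.

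**Figure D2:**
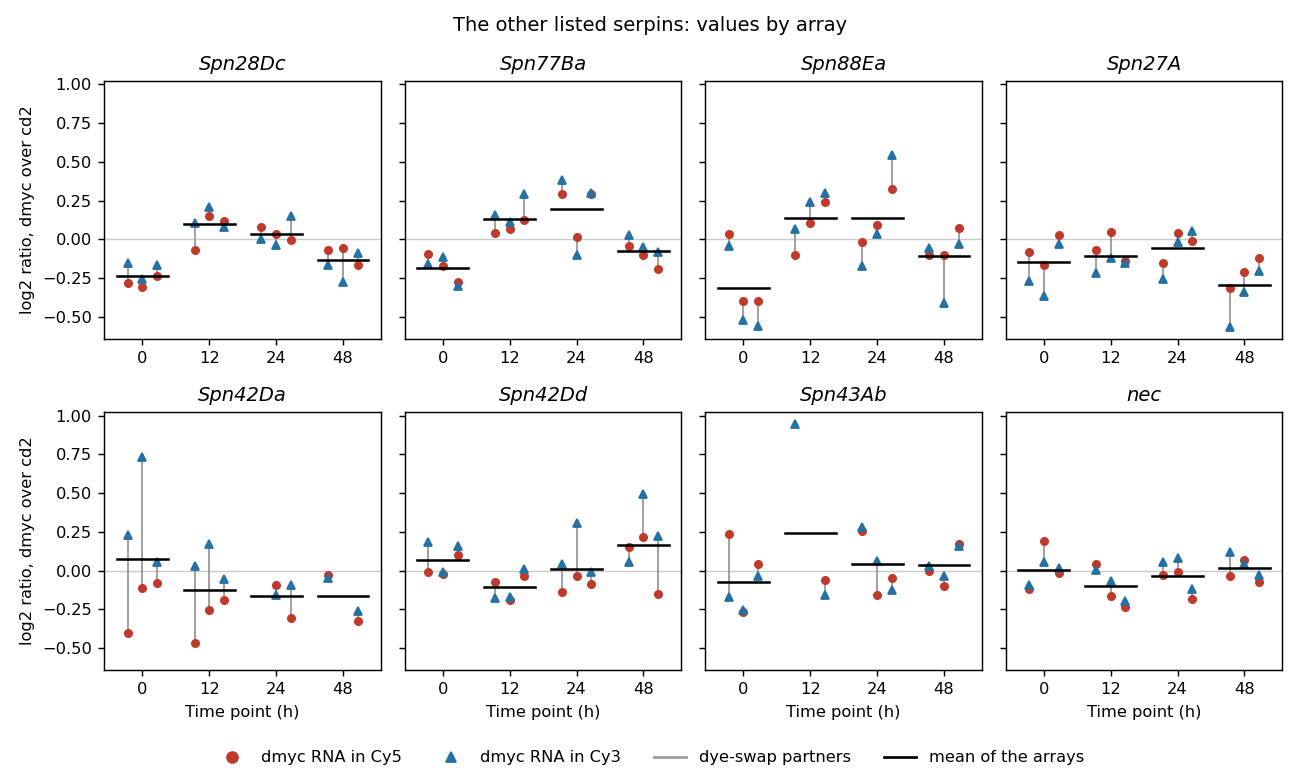
Log2 ratio of dmyc over cd2 discs for the other 8 serpins at each time point in hours, on 1 vertical scale, with circles and triangles for dmyc RNA in Cy5 and in Cy3, grey lines between dye-swap partners and black bars for means. Spn28Dc, Spn77Ba and Spn88Ea (mean at 0 h -0.23, -0.19 and -0.31) stand below 0 at 0 h, while the mean of nec stays between -0.10 and 0.02.

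The other 5 serpins did not share that order of signs. Spn27A, which restrains melanin formation and, in the embryo, the protease step before Toll, had a negative mean at each time: -0.15 ± 0.15, -0.11 ± 0.09, -0.06 ± 0.12 and -0.29 ± 0.16 at 0, 12, 24 and 48 h (SD, n = 6 each). At 48 h its lowest, median and highest values were -0.57, -0.26 and -0.12, below 0 on all 6 arrays. At the earlier times 1 or 2 arrays were above 0, the 0 h mean was -0.09 without replicates 2 and 5, and the 24 h mean was 0.02 without replicates 1 and 5. For nec, the inhibitor that keeps Toll silent in the uninfected fly, the means were 0.01 ± 0.11, -0.10 ± 0.11, -0.03 ± 0.10 and 0.02 ± 0.07, and arrays lay on both sides of 0 at every time. Its span of 0.12 was the smallest of the 10 and below the median of all features. Spn42Dd, a serpin that limits the Toll response to fungi, had means of 0.07 ± 0.09, -0.11 ± 0.08, 0.01 ± 0.16 and 0.16 ± 0.21, with 5 of 6 arrays below 0 at 12 h and 5 of 6 above 0 at 48 h. Its 48 h mean was 0.10 without replicate 5 and 0.07 without replicates 2 and 5, and its 12 h mean was -0.07 without replicates 2 and 5.

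Spn42Da, which inhibits furin-type proprotein convertases and makes several isoforms that differ in the reactive loop, was measured on 6, 6, 4 and 4 arrays. Its means were 0.07 ± 0.39, -0.13 ± 0.22, -0.16 ± 0.10 and -0.17 ± 0.15 (SD), and all 4 arrays were below 0 at 24 h and at 48 h. The 0 h mean was -0.05 without replicates 2 and 5, the 12 h mean was -0.06 without replicate 1, and the 48 h mean was -0.29 without replicates 1 and 4 and -0.04 without replicates 3 and 6. The array annotation does not say which isoforms its row detects. Its ratio differed with the dye orientation, which is a measure the choice of members did not use. Over all times it averaged -0.23 with dmyc RNA in Cy5 and 0.06 with dmyc RNA in Cy3. The orientations lay apart at 0 h (Cy5 from -0.405 to -0.078, Cy3 from 0.057 to 0.735) and at 12 h (from -0.467 to -0.192 and from -0.055 to 0.169). At 24 h they did not, with -0.094 and -0.308 in Cy5 against -0.095 and -0.155 in Cy3. Nor did they at 48 h, with -0.029 and -0.327 against -0.047 and -0.262. The coefficient that follows pools all times and was not recomputed with arrays left out. The dye coefficient was -0.29 ± 0.09 (limma, moderated SE; adjusted p 0.0474, Benjamini-Hochberg over 10661 features, a comparison added after the values were seen). Of all features, 6.13% passed in that direction and 4.90% in the other. For the other 8 serpins in the fit the dye coefficients lay between -0.26 and 0.11, with adjusted p of 0.14 or more.

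Spn43Ab was measured on 3 arrays at 12 h and on 6 at each other time, and it was the 1 member that did not meet the minimum of 4 values at every time, so it is absent from the fit across features. At 12 h its values were -0.16, -0.06 and 0.95, and the highest was replicate 4, whose partner had no value. Its 12 h mean was -0.11 without replicates 1 and 4 and 0.95 without replicates 3 and 6. Its means were -0.08 ± 0.20 at 0 h, 0.04 ± 0.19 at 24 h and 0.04 ± 0.11 at 48 h (SD, n = 6 each), with arrays on both sides of 0. Its mean at 24 h was -0.07 without replicates 1 and 5.

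As a group, the 10 serpins had median ratios of -0.17, 0.12, 0.04 and -0.12 at 0, 12, 24 and 48 h, beside medians between -0.0002 and 0.004 over all features. At 0 h, 7 of 10 means were below 0, and at 12 h 6 of 10 were above it. The share of all features on each side was not counted, but medians near 0 put about as many above as below. The 6 include Spn43Ab, whose 12 h mean of 0.24 had 2 of 3 arrays below 0. The 12 h median of the group was 0.01 without replicate 4, where the mean of Spn43Ab was -0.11. On every array measured, 4 of 10 were below 0 at 0 h (Spn100A, Spn43Aa, Spn28Dc and Spn77Ba), where 9.46% of all features were. At 12 h, 2 of 10 were above 0 on every array (Spn43Aa and Spn77Ba), with 8.33% of all features. At 24 h, 1 of 10 was below 0 on every array (Spn42Da), with 7.96% of all features, and at 48 h 3 of 10 were (Spn27A, Spn28Dc and Spn42Da), with 5.10%. None of the 10 was on the opposite side of 0 on every array, where 7.53% of all features were above 0 at 0 h, 6.78% below 0 at 12 h, 8.34% above 0 at 24 h and 5.87% above 0 at 48 h. Since the members were chosen with these ratios known, the shares are given only for scale.

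The 4 serpins below 0 on every array at 0 h also had every 12 h array above every 0 h array, as had 5.50% of all features. The difference of 12 h minus 0 h was 1.20 ± 0.26 for Spn100A, 1.32 ± 0.19 for Spn43Aa, 0.33 ± 0.05 for Spn28Dc and 0.32 ± 0.05 for Spn77Ba (SE from the spread of 6 arrays at each time). It was 0.45 ± 0.12 for Spn88Ea, with overlapping arrays. Every 24 h array was above every 0 h array for Spn43Aa and Spn28Dc, as in 4.84% of features. Every 48 h array was below every 12 h array for Spn43Aa (difference -1.01 ± 0.23) and Spn77Ba (-0.20 ± 0.05), as in 0.638% of features. Every 48 h array was below every 24 h array for Spn28Dc (-0.17 ± 0.04), as in 0.516%. No other pair of times was without overlap for any of the 10. Over all features the reverse order was seen in 3.38% for 12 h below 0 h and 2.48% for 24 h below 0 h, in 0.460% for 48 h above 12 h and in 0.263% for 48 h above 24 h. For the pairs of times with no such serpin the shares above and below were 1.60% and 1.09% for 48 h against 0 h, and 0.197% and 0.347% for 24 h against 12 h. These differences share the arrays of a time and are not independent of each other. Their SEs take the 6 arrays of a time as independent and are too small where dye-swap partners share RNA.

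Several of these serpin genes stand side by side, and the differences between neighbours were not tested. In the RefSeq gene order, Spn43Aa is followed, after 2 other protein-coding genes, by Spn43Ab, Spn43Ad and nec. At 0 h their means were -0.89 for Spn43Aa, -0.08 for Spn43Ab and 0.01 for nec, and Spn43Ad is not analysed here. Spn42Da, Spn42Db, Spn42Dc and Spn42Dd stand in a row with no other gene between them, and the means of Spn42Da, Spn42Dc and Spn42Dd stayed within 0.17 of 0 at every time. Spn77Ba is followed directly by Spn77Bb and Spn77Bc, whose estimates at 0 h were 0.06 and 0.01, against -0.19 for Spn77Ba. Spn88Ea is next to Spn88Eb, whose estimates were -0.07, 0.23, 0.16 and 0.10 at 0, 12, 24 and 48 h (limma adjusted p 0.631, 0.081, 0.224 and 0.543). The means of Spn88Ea had the same sign at 0, 12 and 24 h and the opposite sign at 48 h (-0.10). At 0 h the arrays of Spn88Eb lay 3 on each side of 0. Cross-hybridisation between related serpins was not tested.

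Of the 13 serpins outside the list, 12 met the minimum of values and were tested with limma, each time against a ratio of 0, with adjustment over all 10661 features. Here and below, a gene that rose or fell at a time had a ratio that passed above or below 0, not a change from 0 h. At 0 h 1 fell and none rose, at 12 h 1 rose and 2 fell, at 24 h 1 rose and 1 fell, and at 48 h 1 fell. Over all features, 12.1% passed at 0 h (3.84% higher, 8.24% lower), 8.29% at 12 h (5.32% higher, 2.97% lower), 8.14% at 24 h (3.75% higher, 4.39% lower) and 6.29% at 48 h (3.10% higher, 3.19% lower). The medians of the 12 were 0.02, -0.02, -0.01 and 0.01.

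Spn55B, outside the list, had means of the same sign as those of Spn43Aa at 0, 12 and 24 h, and of the opposite sign at 48 h. It had -0.45, -0.18 and -0.06 at 0 h, 0.10, 0.29 and 0.59 at 12 h, -0.004, 0.24 and 0.39 at 24 h, and -0.14, 0.13 and 0.26 at 48 h (lowest, median and highest of 6 arrays). All arrays were below 0 at 0 h and above 0 at 12 h. Its estimates were -0.20 ± 0.05 at 0 h (limma adjusted p 0.0152), 0.30 ± 0.05 at 12 h (adjusted p 0.00202), 0.19 ± 0.05 at 24 h (adjusted p 0.0271) and 0.12 at 48 h (adjusted p 0.171). With partners averaged none of these passed (adjusted p 0.195, 0.169 and 0.28 at 0, 12 and 24 h, the highest over 45 alternatives, whose lowest were 0.00333, 0.000738 and 0.0174). At 0 h the call was also lost without replicate 1 (0.0514), without any of the 3 pairs (0.0974, 0.0705 and 0.0801), with quantile normalization (0.0911) and with partners as a random block (0.0643). The 24 h call of Spn55B was lost without replicate 2, 3, 4 or 6 (0.0833, 0.0937, 0.087 and 0.0524), without the pair 2 and 6 (0.13) or 3 and 4 (0.243), and with quantile normalization (0.0541), no dye coefficient (0.0628) or the random block (0.109).

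Spn47C was below 0 on all 6 arrays at 12, 24 and 48 h and on 5 of 6 at 0 h. Its estimates were -0.08 ± 0.04 at 0 h (limma adjusted p 0.218), -0.21 ± 0.04 at 12 h (adjusted p 0.00352), -0.16 ± 0.04 at 24 h (adjusted p 0.0164) and -0.35 ± 0.04 at 48 h (adjusted p 1.23e-05). At 48 h its values ran from -0.59 over -0.33 to -0.15, and the call held under each of 45 alternatives, with adjusted p from 1.26e-05 to 0.0175. The 12 h call was lost with partners averaged (0.145, lowest over the alternatives 0.00074). At 24 h the call was lost with partners averaged (0.209, lowest 0.00999), with the random block (0.113), without replicate 5 (0.0679) and without the pair 1 and 5 (0.132) or 3 and 4 (0.0712). Spn31A was lower at 12 h (-0.11 ± 0.03, adjusted p 0.0247, 6 of 6 arrays). It lost the call under 9 of 45 alternatives (adjusted p from 0.0139 to 0.245), which were both treatments of partners, each 12 h pair left out (0.0887, 0.101 and 0.102) and 12 h replicate 1, 3, 5 or 6 left out (0.0619, 0.0539, 0.0622 and 0.069).

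**Figure D3:**
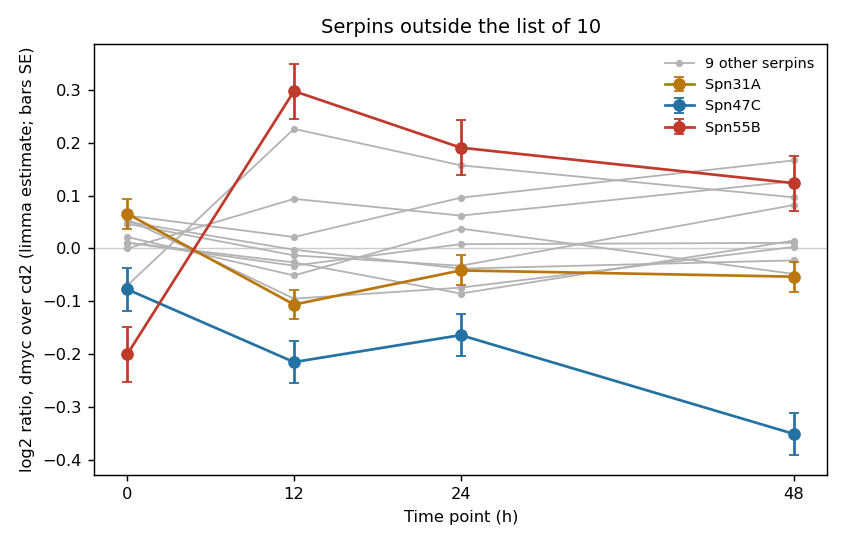
Limma estimates of the log2 ratio of dmyc over cd2 discs at each time point in hours for 12 serpins outside the list, with SE bars for Spn55B, Spn47C and Spn31A and grey lines for the other 9. Spn55B is at -0.20 at 0 h and 0.30 at 12 h, and Spn47C is at -0.35 at 48 h.

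Genes of the cascades that serpins restrain were tested in the same fit. Of 7 measured proteases, ligands and recognition proteins upstream of Toll, 2 fell at 0 h and 1 at each later time, and none rose, beside 8.24%, 2.97%, 4.39% and 3.19% of all features lower at 0, 12, 24 and 48 h. The gene lower at every time was grass, a serine protease of the cascade (-0.50, -0.60, -0.40 and -0.76, each ± 0.08, limma adjusted p 0.000515, 0.000242, 0.00427 and 4.92e-06, 6 of 6 arrays each). With partners averaged its calls at 0, 12 and 24 h were lost (0.0885, 0.121 and 0.209, over lowest values of 0.000104, 2.44e-05 and 0.000794), and the 48 h call held (0.0216). Its 0 h value was -0.32 without replicates 1 and 4. GNBP3, a recognition protein for fungal glucans, fell at 0 h (-0.45 ± 0.14, adjusted p 0.0346, below 0 on 5 of 6 arrays). It lost the call under 7 of 45 alternatives (adjusted p from 0.000783 to 0.307). They were both treatments of partners, and leaving out 0 h replicate 2, 3 or 5 (0.153, 0.2 and 0.0852) or the pair 2 and 5 or 3 and 6 (0.307 and 0.235).

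Of 9 genes from the Toll receptor to its transcription factors, 1 fell at 0 h and 1 at 24 h, beside 8.24% and 4.39% of all features. The receptor gene Tl was at -0.41 ± 0.10 at 24 h (limma adjusted p 0.0136, 6 of 6 arrays). It lost the call under 5 of 45 alternatives (0.00127 to 0.24), namely both treatments of partners, without 24 h replicate 5 (0.0618) and without the pair 1 and 5 (0.113) or 2 and 6 (0.0653). For cact, the cytoplasmic inhibitor of the pathway, the value at 0 h was -0.28 ± 0.09 (adjusted p 0.0448, 6 of 6 arrays). That call was lost under 22 of 45 alternatives, with adjusted p up to 0.476 without the pair 3 and 6, where the value was -0.18, and down to 0.00638. Of 6 antimicrobial peptide genes, none passed at any time, beside 12.1%, 8.29%, 8.14% and 6.29% of all features at 0, 12, 24 and 48 h.

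Among 6 genes of melanin formation, PPO1, a prophenoloxidase gene of crystal cells, rose at 0 h (0.24 ± 0.04, limma adjusted p 0.00159, 6 of 6 arrays), and the other 5 did not pass at any time. Of all features, 3.84% were higher at 0 h. The PPO1 call was lost with partners averaged (0.0883, lowest over 44 alternatives 0.000515), and the value was 0.16 without replicates 1 and 4. Neither of 2 proprotein convertase genes passed, Fur2 and S1P.

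Genes listed as markers of the disc and of other tissues were tested in the same fit. Over all features, 8.24% were called lower and 3.84% higher at 0 h, and 2.97% and 5.32% at 12 h. At 24 h the shares were 4.39% and 3.75%, and at 48 h 3.19% and 3.10%. Of 9 trachea markers 3 fell at 0 h and 2 rose at 12 h, and the mean of the 9 lay between -0.37 and -0.04 on the 0 h arrays, between -0.03 and 0.32 at 12 h, between -0.04 and 0.25 at 24 h, and between -0.15 and 0.10 at 48 h. Among them the chitin deacetylase gene verm was at -0.50 ± 0.09 at 0 h (limma adjusted p 0.000976) and 0.50 ± 0.09 at 12 h (adjusted p 0.00171), each with the same sign on 6 of 6 arrays and each lost with partners averaged (0.106 and 0.169, over lowest values of 1.25e-05 and 0.000568). With partners as a random block, limma no longer called the deacetylase gene serp at 0 h (adjusted p 0.106) and at 12 h (0.0697) or sinu at 0 h (0.0612). These calls, at -0.23, 0.28 and -0.34, were lost under 10, 3 and 6 of 45 alternatives, and sinu was at -0.18 without 0 h replicates 3 and 6. No other trachea marker passed. Of these, btl was at 0.0005 at 0 h and 0.06 at 12 h (limma adjusted p 0.996 and 0.366), and kkv at -0.11 and 0.18. Whether this list follows tracheal tissue was not tested. Of 7 fat body markers 0 passed at 0 h and at 12 h, 1 rose at 24 h and 1 rose at 48 h. Their mean lay between -0.73 and 0.74 at 0 h, -0.26 and 0.84 at 12 h, -0.49 and 1.04 at 24 h, and 0.34 and 1.22 at 48 h. Of 7 hemocyte markers 1 fell at 12 h and 1 rose at 48 h, with a mean between -0.34 and 0.28 at 0 h, -0.27 and 0.10 at 12 h, -0.31 and 0.32 at 24 h, and 0.03 and 0.56 at 48 h. That mean leaned on the gene fon. In the 24 h pairs 1 and 5, 2 and 6, and 3 and 4 the mean was 0.29, -0.11 and -0.26. In the same pairs fon was at 1.85, -0.23 and -1.67, and the fat body gene Fbp2 at 1.62, -0.51 and -1.61. The pairs of 0 h and of 12 h also stood in the same order in both genes, those of 48 h did not. Which tissue fon followed on these arrays was not tested, so the hemocyte mean may not be separate from that of the fat body. The estimates of NimC1, eater, Pxn, NimC4 and srp stayed within 0.15 of 0 at every time. At 24 h the means of the fat body markers were 1.00 in the pair 1 and 5, -0.19 in the pair 2 and 6 and -0.45 in the pair 3 and 4, in which Spn100A had -0.82, -0.18 and 1.63, the opposite order. In the pairs 1 and 4, 2 and 5, and 3 and 6 of the other times, fat body markers had 0.71, -0.69 and 0.23 at 0 h, 0.82, 0.25 and -0.24 at 12 h, and 0.60, 1.17 and 0.40 at 48 h. The values of Spn100A in those pairs, given above, were lowest where the markers were highest at 0 h, while at 12 h the pair 3 and 6 was lowest in both. At 48 h Spn100A was lowest in the pair 1 and 4, and the markers were highest in the pair 2 and 5. The fat body mean leaned on few genes. At 48 h Fbp2, apolpp and Adh were at 2.22, 1.31 and 1.08. The rest, Fbp1 and the yolk protein genes Yp1, Yp2 and Yp3, were between -0.04 and 0.20. Whether the yolk protein genes report fat body in larval discs was not tested. The genes of the fat body list that passed were Yp2 at 24 h and Fbp2 at 48 h. The 24 h estimate of Yp2 was 0.24 (limma adjusted p 0.0281, 0.0106 to 0.402 over 44 alternatives, of which 6 lost the call). That of Fbp2 at 48 h was 2.22 ± 0.64 (limma adjusted p 0.0422, lost under 12 of 45 alternatives, 0.016 to 0.446). Yp2 was at 0.16 without 24 h replicate 1 and 0.08 without the pair 1 and 5, and Fbp2 at 1.26 without 48 h replicates 2 and 5. On the hemocyte list, the phagocytosis receptor gene NimC2 was at -0.47 at 12 h (limma adjusted p 0.0447). The clotting factor gene fon, compared with Fbp2 above, was at 1.71 ± 0.51 at 48 h (adjusted p 0.0463). These calls were lost under 25 and 23 of 45 alternatives (up to 0.296 and 0.398). Of 10 wing disc markers 1 rose and 3 fell at 0 h, 1 rose and 1 fell at 12 h and at 24 h, and none passed at 48 h, and of 4 myoblast markers none passed at any time. The disc genes named by the rule were nub, vg and en. With partners as a random block vg at 0 h (limma adjusted p 0.0824), en at 12 h (0.122) and nub at 24 h (0.166) did not pass, and these calls were lost under 7, 25 and 23 of 45 alternatives. The call of en at 24 h was lost with partners averaged (0.214) and without the pair 1 and 5 (0.129, value -0.30), and en at 12 h was at -0.18 without the pair 1 and 4. The calls of nub at 0 h and 12 h were lost with partners averaged (0.0886 and 0.121). The part of these tissues in the serpin ratios was not tested.

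**Figure D4:**
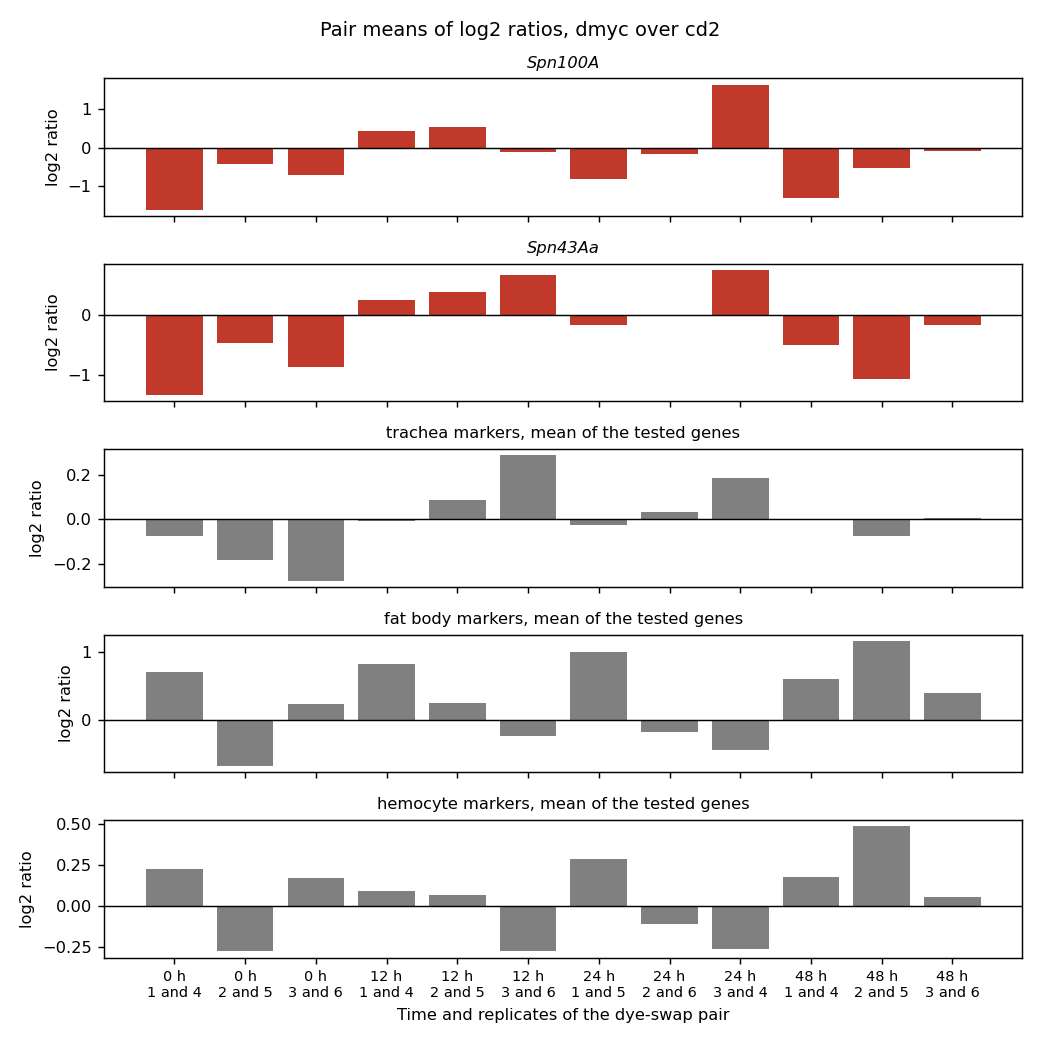
Mean log2 ratio of dmyc over cd2 discs for each of 12 dye-swap pairs (horizontal axis, time point and replicates), for Spn100A and Spn43Aa (red bars) and for the means of 9 trachea, 7 fat body and 7 hemocyte markers (grey bars), with a vertical scale of its own in each panel. The trachea bars are below 0 in every 0 h pair, as are both serpins, while the fat body bars are above 0 in every 48 h pair. The hemocyte bars lean on the gene fon, which was at 1.85, -0.23 and -1.67 in the 24 h pairs. The fat body gene Fbp2 was at 1.62, -0.51 and -1.61 in them.

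For each serpin the 3 named genes with the most similar values over the arrays were picked by Pearson's r, which describes likeness on these arrays and dye-swap pairs only. The nearest to Spn100A were SP1029, a membrane aminopeptidase gene (r = 0.91 over 24 arrays), the ecdysone-inducible gene ImpE3 (0.89) and wbl, which encodes a protein of the endoplasmic reticulum (0.89). The means of SP1029 were -0.86, 0.09, -0.27 and -0.62 at 0, 12, 24 and 48 h. Nearest to Spn43Aa were CG4586 (0.89), neo (0.88, 23 arrays) and TRAM, a gene of the protein translocation channel (0.88). Nearest to Spn88Ea were Srp68, a subunit of the signal recognition particle (0.90), CG2656 (0.90) and Lst8 (0.88), and nearest to Spn77Ba were jagn (0.89), zda (0.88) and CG12096 (0.87). Spn28Dc was nearest to CG18547, Alg2 and Amacr (each 0.82), and Spn27A to CtsK1 (0.89), Sod3 (0.79) and CG3355 (0.77). The lowest likeness was that of Spn42Dd, with CG13659 and Acbp4 (each 0.71) and Kdm4B (0.69, 23 arrays), and of nec, with CG14280 (0.77), CG31272 (0.74) and CG13599 (0.74, 22 arrays). Spn42Da was nearest to CG16863 (0.92), IFT57 (0.91) and Lk6 (0.90) over 20 arrays, and Spn43Ab to CG15293 (0.94), Cyt-b5-r (0.93) and CG3984 (0.89) over 21 arrays. The ratios of nec and Spn88Ea ran against each other over 24 arrays, with r = -0.67, and with the same value once each time's mean was removed.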

How the data were processed

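Per the labels' protocols, wing disc RNA went through 2 rounds of amplification before labelling, and 3 of 6 arrays of a time had the dyes swapped. The deposited values were taken as log2 ratios from their range and centring; how the authors scanned, corrected and normalized the arrays, and in which log base, is not known here. Of 12359 rows, 169 at control positions, inferred as print positions (blocks of 324 rows) at which no row names a gene, were left out. Genes were named from the platform annotation, updated by gene ID through the RefSeq table (9896 of 10289 rows with 1 gene matched). Arrays were centred on their medians, rows of a gene averaged, and features with 4 or more values at every time (10661) fitted with limma 3.58.1 in R 4.3.3, with a coefficient per time and one for dye, and Benjamini-Hochberg adjustment at 0.05. The fit was run on simulated data in which all arrays varied independently. That run cannot show how the fit behaves where dye-swap partners are alike. Serpin values are means and SDs over arrays. Same-numbered replicates of different times were little more alike than others (mean r of deviations 0.06 against -0.01). The r was over 0.1 in 15 of 36 pairings against 58 of 180. This cannot decide whether the numbers pair samples, and the main fit did not pair them. The members, gene lists, partner pairs and alternatives were chosen with earlier results of these data known. The naming rule was all 10 serpins, up to 3 passing genes of lowest adjusted p per list, and the 3 genes most like each serpin. A few other genes of a list are named to show its range.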

Additional observations from a re-analysis of the deposited data

Results flagged for a closer look

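In 3 of 111 groups of arrays checked, covering the 10 serpins and the genes picked from the lists, 1 array stood far from the rest by Dixon's criterion; chance alone gives about 1 in 20. Spn88Ea was at -0.41 on 48 h replicate 5, with the next array at -0.10. Tl was at -0.056 on 24 h replicate 4, with the next at -0.42, and nub was at -0.17 on 48 h replicate 1, with the next at 0.02.

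A total of 10 pairs of times had every array of one time on one side of 0 and every array of the other on the opposite side, in differences that were not tested. The serpins among them had differences of 12 h minus 0 h of 1.32 for Spn43Aa, 0.32 for Spn77Ba and 0.50 for Spn55B. PPO1 had -0.35, verm 1.01 and serp 0.51 for the same times. The pouch gene nub had 0.54 at 12 h minus 0 h and 0.39 at 24 h minus 0 h, while vg had -0.54 and -0.53. The share of all features with times on opposite sides of 0 was not counted. Non-overlap alone, a looser criterion, was met by 5.50% (12 h above 0 h) and 3.38% (below). For 24 h against 0 h the shares were 4.84% and 2.48%. The genes checked were chosen with these data known, so the count of 10 has no background of its own.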

How the results depend on the processing

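The number of features passing was 1287, 884, 868 and 671 at 0, 12, 24 and 48 h. With dye-swap partners averaged it was 0, 0, 0 and 58 in limma, where 1724, 1490, 1435 and 1253 had an unadjusted p under 0.05. With partners as a random block (correlation 0.443) it was 515, 143, 172 and 204, and array weights gave 3143 at 0 h. With the replicate block it was 1206, 767, 770 and 649, and among calls given above it ended those of cact at 0 h (adjusted p 0.0517), NimC2 at 12 h (0.0585), nub at 24 h (0.0659) and fon at 48 h (0.0522). Whether array numbers pair samples across times is not known. Leaving out arrays or pairs gave 206 to 1804, 294 to 1072, 139 to 1063 and 235 to 818. The lowest counts came without 0 h replicates 3 and 6, 12 h replicates 3 and 6, 24 h replicates 1 and 5 and 48 h replicates 2 and 5. Single arrays that moved a count by over 1.5 times were 0 h replicates 2, 3, 5 and 6 (794, 553, 855 and 671), 12 h replicates 1, 3 and 6 (480, 387 and 350), 24 h replicates 1, 3 and 5 (387, 561 and 321) and 48 h replicates 2 and 5 (322 and 380), and of pairs also 0 h 2 and 5 (413) and 24 h 3 and 4 (576). The split into higher and lower was 409 and 878 at 0 h, and 613 and 654 with quantile normalization, and at 12 h it was 567 and 317, and 479 and 388. At 24 h it turned, with 400 and 468, and 457 and 407 under quantile normalization. The median serpin ratio ranged from -0.18 to -0.15, 0.0057 to 0.14, 0.0015 to 0.07 and -0.13 to -0.09 over arrays or pairs left out. It moved by less than 1 SD of the array medians in 71 of 72 recomputed values, the other being the 12 h median without replicate 4. A mean of 6 arrays can move little on that scale when 1 is left out, so this count says little about stability. At 24 h the median went from 0.04 to 0.0015 without replicates 3 and 4. The causes were not tested.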
